A study of Mus musculus with 36 samples.

Results

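The bins next to centromeres were the H3K9me3 bins of chromosomes 1 to 19 whose start lay below position 6000000 of the mouse genome build mm10, and they were chosen by position alone. They numbered 2689 of the 120683 bins in the table of control females at 3 and 8 weeks and 3294 of the 148133 bins in the table of control males at 3 and 8 weeks. In the tables that set offspring of obese mothers (maternal obesity, MO) beside control offspring, they numbered 3029 of 140214 bins in females at 3 weeks, 3494 of 159357 in males at 3 weeks, 2574 of 116257 in females at 8 weeks and 2384 of 102145 in males at 8 weeks. That was between 2.16% and 2.33% of each table.

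The study profiled livers of mouse offspring by chromatin immunoprecipitation and sequencing with an antibody against H3K9me3, with 32 ChIP libraries in 8 groups of 4, plus 4 input libraries that enter none of the values below. Control offspring came from dams on chow, and MO offspring came from dams on a Western-style diet before mating, through pregnancy and through lactation. Females and males were taken at 3 weeks, at the end of lactation, or at 8 weeks, after 5 weeks of chow, so that both groups ate the same food after weaning. By the study's methods, the offspring came from floxed littermate controls of a Reg3g colony on a C57BL/6J background and were Reg3g-fl/+ or Reg3g-fl/fl, and which animals had which genotype is not given in the sources used here. The samples were whole liver tissue, so hepatocytes and the other cells of the liver were measured together, and a bin marked in few cells cannot be told from a bin marked weakly in many.

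H3K9me3 is the trimethylation of lysine 9 on histone 3, a mark of silent chromatin. It is written by SUV39H1, SUV39H2 and SETDB1 and read by the HP1 proteins, which help to compact the chromatin that carries it. All mouse autosomes have their centromere at one end, next to long arrays of satellite DNA on which this mark is densest. Those arrays are a gap in the reference assembly, so the bins described here sit in the first sequenced DNA beside them and not in the satellites themselves. The first sequenced base lay between positions 3000001 and 3100001 on all 19 autosomes, and the windows held 56.5 Mb of sequence, against 2339 Mb in the rest of the autosomes.

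Each value below is a level, the authors' mean log2 CPM of a bin (read counts scaled to the size of the library, on a log2 scale), taken over both groups of a table, which is 8 libraries. The deposited tables gave no value per library, so no level has an error between animals. The authors' own comparison of the 2 groups of a table was not used here, and everything below is a description without a test. Intervals cover counting over bins only, and bins are not replicates. Each peak is represented by exactly 1 bin in a table, of at most 501 bp, although the peaks could be far longer. The sources used here do not say how that bin was picked. The control libraries of an age and sex enter 2 tables, so only tables of different sexes, and the 3-week and 8-week MO tables of 1 sex, are free of shared libraries.

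The members shown here by sequence are the strongest of their autosome in 1 of the age tables, picked to show both kinds of sequence found in the windows. Each line gives the 30-base word of that bin that is found at most places in the genome, read from the + strand of the RefSeq assembly of GRCm38 (mm10), with each CG pair in capitals because CG pairs are the sites of DNA methylation. The first 4 bins are made mostly of words found once in the genome and include the 3 strongest members of control females.
Aasdhppt bin: taagagttttcttttttcagaaggccccac
Zfp958 bin: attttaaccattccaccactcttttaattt
Sec14l2 bin: ctgctgttccctaagcacatgtctcccctc
Akr1e1 bin: tctttattagcaccacagtagttttaatag

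The Aasdhppt word lies at chr9:4260136-4260165 and has 5 places in the genome. The Zfp958 word lies at chr8:4656672-4656701 and has 2 places. The Sec14l2 word lies at chr11:4121748-4121777 and has 1 place, as do all 283 words of that bin. The Akr1e1 word lies at chr13:4800325-4800354 and has 43 places, although 87.9% of the words of that bin are unique. None of the 4 words holds a CG pair.

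The remaining bins lie almost wholly in soft-masked sequence, which the assembly marks as repeats, and these words recur many times.
Sf3b6 bin: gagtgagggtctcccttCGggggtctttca
Hnf4g bin: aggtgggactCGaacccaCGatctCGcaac
Fam110b bin: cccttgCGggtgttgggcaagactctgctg
Vps50 bin: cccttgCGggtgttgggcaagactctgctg
Bet1 bin: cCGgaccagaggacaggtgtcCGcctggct
Fam107b bin: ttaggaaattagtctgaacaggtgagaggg

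The Fam110b word at chr4:5762795-5762824 and the Vps50 word at chr6:3647108-3647137 are the same 30 bases, found at 6448 places in the genome, and the 2 bins share 124 words in all. The Sf3b6 word at chr12:4801319-4801348 has 450 places and the Hnf4g word at chr3:3263063-3263092 has 436, and these 2 bins share 108 words. The Bet1 word at chr6:4092241-4092270 has 2049 places and the Fam107b word at chr2:3842501-3842530 has 5789, and these 2 bins share 84 words. Among these 6 bins, no other pair shared a word. These 6 bins, on 5 autosomes, thus fell into 3 pairs that share repeat sequence. How the authors placed reads that match many sites is not given in the sources used here, so a level in such a bin may hold reads of other copies.

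The same repeat words were found in few members. The Fam110b and Vps50 word was in 12 members of the control female table (0.446%) and in 0.503% of the other autosomal bins. The Bet1 word was in 7 members (0.260%) against 0.417% of other bins, and the Fam107b word in 10 members (0.372%) against 0.385%. When words were picked in turn for the number of female members that held them, the first was a run of alternating a and c, acacacacacacacacacacacacacacac, in 39 members (1.45%) and in more of the other bins (2.01%). The second, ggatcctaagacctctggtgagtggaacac, was also in 39 members (1.45%), on 15 autosomes, and in 1.16% of the other bins, and it was in 1.34% of the male members against 0.943%. Members that held this second word had a median level of 3.03 in females and 2.59 in males, against 2.67 and 2.14 for all members. The third, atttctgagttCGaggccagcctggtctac, was in 32 female members (1.19%) against 1.12% of other bins, and the fourth, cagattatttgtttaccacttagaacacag, in 29 (1.08%) against 0.665%. Since the words were picked on the female members, their shares there are a description.

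The windows were about as densely marked as the rest of the autosomes. In control females there were 47.6 bins per sequenced Mb next to centromeres and 47.7 elsewhere, a ratio of 0.998. In control males the densities were 58.3 and 61.6 bins per Mb, a ratio of 0.947. For the MO tables of 3 weeks the ratio was 0.960 in females and 0.932 in males, and for those of 8 weeks it was 0.996 and 0.997. The next 3 Mb of the same autosomes, from 6 to 9 Mb, held fewer bins, with 39.7 per Mb in control females and 50.1 in control males, so that the windows were the denser by 1.16 to 1.20 times in the 6 tables. Since each bin stands for 1 peak, these are also densities of peaks.

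The peaks were shorter than elsewhere. The median peak length was 753 bp next to centromeres and 841 bp on the rest of the autosomes in control females, and 738.5 bp against 810 bp in control males. Peaks covered 68.0 kb per sequenced Mb of the windows and 75.2 kb per Mb elsewhere in control females, and 77.4 against 88.0 kb per Mb in control males. Peaks of over 10 kb numbered 23 in each of the 6 tables, 0.855% of the members of the control female table against 1.28% of the other bins. The longest peak spanned 32705 bp in the female tables and 28457 bp in the male tables.

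The level was slightly higher than elsewhere, by far less than the spread between bins. In control females the members had a median level of 2.67 (quartiles 2.50 and 2.90), and the other autosomal bins 2.64 (2.49 and 2.85). In control males the medians were 2.14 and 2.10. In the MO tables the medians were 2.43 and 2.40 in females at 3 weeks, 2.06 and 2.03 in males at 3 weeks, 2.67 and 2.62 in females at 8 weeks, and 2.78 and 2.74 in males at 8 weeks. The members were thus higher by 0.03 to 0.05 log2 units in each of the 6 tables. With only bins of 400 bp or more the difference was larger, from 0.035 in females at 3 weeks to 0.065 in females at 8 weeks. Among peaks of a single bin the difference was only 0.0060 for control females, 0.0089 for control males, and 0.016 and 0.015 for the male MO tables of 3 and 8 weeks, while it stayed at 0.030 for both female MO tables. The members were also lower by less than 0.03 than the bins of the 6 to 9 Mb stretch. Tables were scaled separately, so a level is read against the other bins of its own table, and a difference between tables against the shift of all bins.

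**Figure D1:**
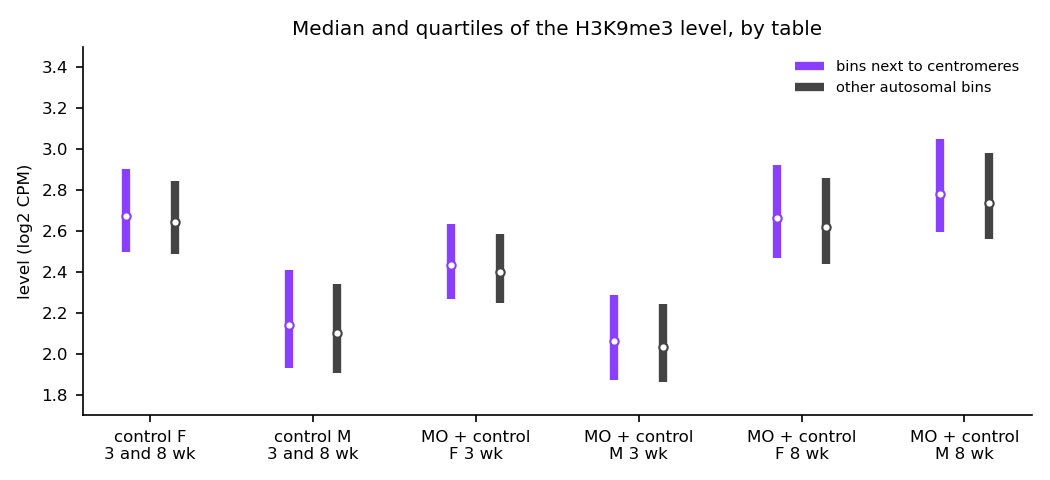
Level (log2 CPM, the authors' mean) of the bins next to centromeres and of the other autosomal bins in the 6 tables, F for females and M for males. Points are medians over bins and thick lines run from the lower to the upper quartile, and the axis does not start at 0. The quartile ranges of the 2 groups of bins overlap over most of their extent in every table, with medians of 2.67 and 2.64 in control females.

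The excess lay at the upper end. The strongest 10% of the other autosomal bins began at a level of 3.07 in control females, and 354 members (13.2%) exceeded it. In the 6 tables this share ran from 13.1% to 13.8%. The members did not include the strongest bins of the genome: the highest member reached 5.57 in control females, where the highest of the other bins reached 9.31, and 5.08 in control males, where it reached 8.99. A level above 4 was reached by 7 members in control females (0.260% against 0.147% of other bins) and by 26 in males at 8 weeks with MO and control (1.09% against 0.887%).

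The level changed little from the centromere outward. In control females the median level was 2.72 in the 0.5 Mb after position 3000000 and 2.70 in the 0.5 Mb before position 6000000, and in between it ranged from 2.64 to 2.68. In control males it was 2.18 in the first step and 2.16 in the last. The tables of 8 weeks differed most between steps. In females at 8 weeks the median fell from 2.74 in the first step to 2.62 in the fifth and was 2.68 in the last, and in males at 8 weeks it was 2.89 in the first step and 2.76 to 2.79 in the others, gaps larger than the difference between members and other bins. At 3 weeks the steps ranged from 2.40 to 2.46 in females and from 2.04 to 2.09 in males. The density was lowest in the first step, with 37.0 bins per Mb for control females and 44.9 for control males, and highest between positions 5000000 and 5500000, with 53.1 and 65.6.

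**Figure D2:**
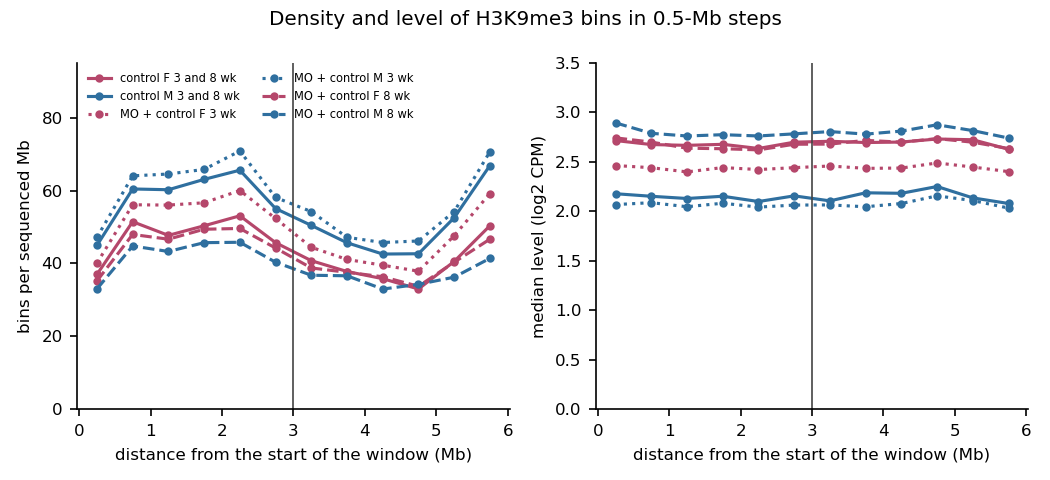
Bins per sequenced Mb (left) and median level in log2 CPM (right) in steps of 0.5 Mb, pooled over the 19 autosomes, against the distance from position 3000000, with 1 line for each of the 6 tables. The vertical line marks the end of the windows. Within the windows, density in control females is lowest in the first step, at 37.0, and highest in the fifth, at 53.1, while the median level stays between 2.64 and 2.72.

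The autosomes differed far more than the steps. Chromosome 19 held the most members, 327 in control females (109.0 per Mb, against 46.5 on the rest of that chromosome) and 404 in control males (134.7 against 61.1). In the 6 tables the density next to its centromere was 2.16 to 2.38 times that of its remainder. Chromosomes 16, 12 and 11 followed, with ratios of 1.86, 1.55 and 1.33 in control females and 1.76, 1.48 and 1.42 in control males. Chromosomes 15, 6 and 5 were at the other end, with ratios of 0.47, 0.52 and 0.57 in control females. The median level ran the other way in part, from 2.90 on chromosome 1 to 2.58 on chromosome 12 in control females.

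Chromosome 14 had almost no members. The count was 2 for control females and 5 for control males, 3 and 4 for the female and male MO tables of 3 weeks, and 4 and 2 for those of 8 weeks, which is 0.02 to 0.04 times the density of the rest of that chromosome. The strongest was at the promoter of 2610042L04Rik in control females, at chr14:4334170-4334670 with a level of 2.90, and in the 5′ untranslated region (UTR) of Gm3383 in control males, at chr14:5880197-5880697 with a level of 2.63. Of the 30-base words sampled along this window, 96.0% occur more than once in the genome, against 25.8% over all 19 windows and 16.1% on the remaining autosomes. Whether reads from such words were kept was not tested.

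**Figure D3:**
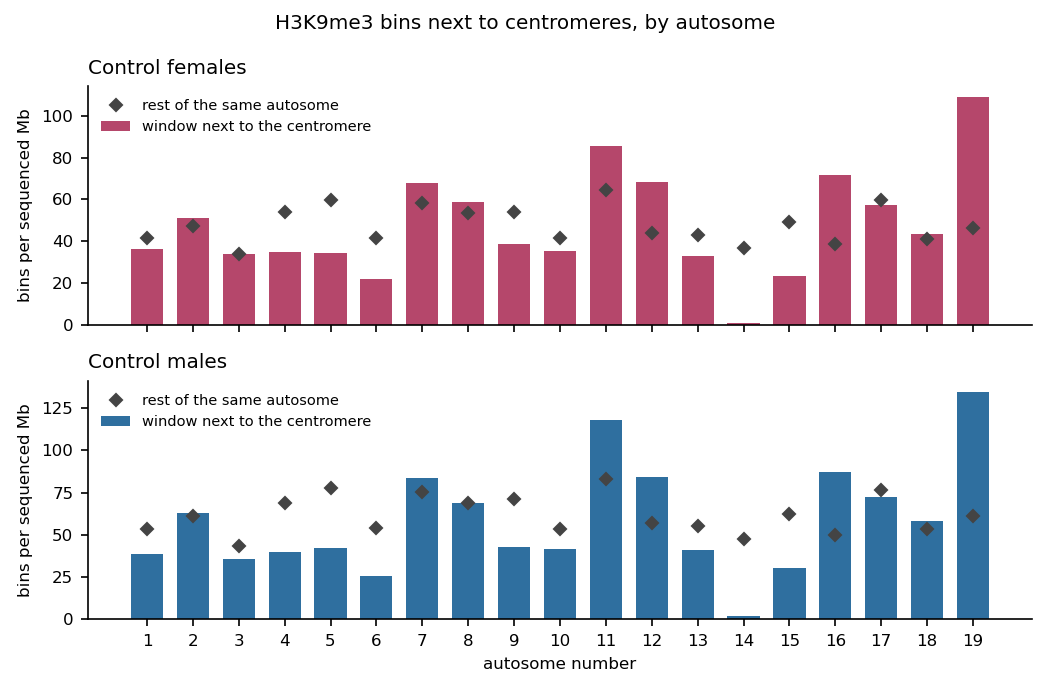
Bins per sequenced Mb on each of the 19 autosomes in the table of control females (top) and of control males (bottom). Bars are the window next to the centromere and diamonds the rest of the same autosome. Chromosome 19 stands highest in both sexes, at 109.0 and 134.7, and chromosome 14 is close to 0.

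Windows with a higher share of G and C had more bins. Over the 19 windows, bins per Mb and GC content had a Spearman correlation of 0.75 for control females and 0.79 for control males (0.83 and 0.87 without chromosome 14). Against the number of protein-coding genes the correlations were 0.49 and 0.54. The 19 points share the same libraries, and gene number and GC content were not separated, so these are descriptions of the windows. The window of chromosome 19 had the highest GC content (47.7%) and the most protein-coding genes (120), and the window of chromosome 3 the lowest GC content (38.2%) and the fewest genes (4).

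The bins themselves were GC-rich. Their median GC content was 54.7% in control females, against 54.3% in the other autosomal bins and 42.1% in the windows as a whole. Repeat content differed more between members and other bins than GC content did. Bins of which more than 50% is soft-masked made up 31.6% of the members and 21.5% of the other bins in control females, and 30.1% against 20.9% in control males. Bins whose sampled words mostly recur in the genome made up 20.4% against 13.3% in control females and 19.2% against 12.6% in control males. Of all bases of the windows 40.0% are soft-masked, against 33.3% of the remaining autosomes. That includes the chromosome 14 window, which is 62.0% soft-masked and has almost no members. Whether the content of the windows bears on the share among the bins was not tested.

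Bins in repeats had the higher levels. In control females the members that were mostly soft-masked had a median level of 2.80 and the rest 2.64, and the other autosomal bins showed nearly the same pair, 2.79 and 2.62. In control males the pair was 2.30 and 2.09 among members, and 2.24 and 2.07 elsewhere. In males at 8 weeks with MO and control, members of repeated words had a median of 3.01 and the rest 2.74. When bins of repeated words were left out, the members stayed higher than the other bins by 0.02 to 0.04 in each of the 6 tables.

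**Figure D4:**
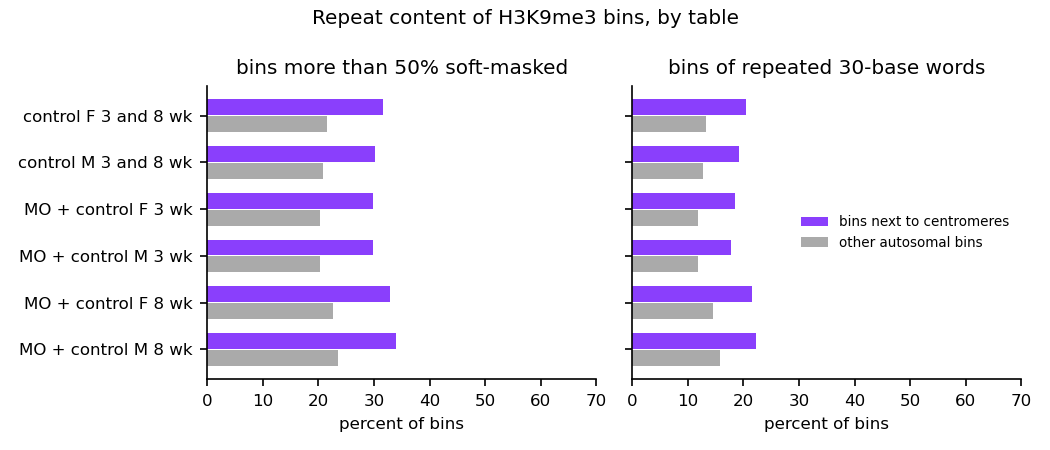
Percent of the bins next to centromeres and of the other autosomal bins that are more than 50% soft-masked (left) or whose sampled 30-base words have a median of more than 1 place in the genome (right), for each of the 6 tables. Bars are shares of all bins of that kind. The bins next to centromeres have the larger share in each table, for example 31.6% against 21.5% in control females.

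By the authors' annotation, intergenic sequence was the largest class of members. In control females 37.9% were intergenic (38.0% of the other bins), 24.0% lay in introns (27.7%), 8.59% in exons (9.39%), 3.61% in UTRs (3.31%) and 25.8% within 3 kb of a transcription start (21.5%). In control males the share near a start was 25.3%, against 20.2% of the other bins. The intergenic members had a median level of 2.74 in control females and the intronic members 2.61, against 2.67 and 2.60 in the other bins.

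The strongest members were few, and their peaks recurred, although not always by the same bin. The bin at chr8:4656666-4656847, 182 bp long and intergenic with Zfp958 as the nearest gene, had a level of 5.46 in control females, 4.96 in females at 3 weeks and 5.61 in females at 8 weeks. Zfp958 encodes a zinc finger protein. The male bin there, chr8:4656300-4656800, had 4.92 in control males, 4.32 at 3 weeks and 5.56 at 8 weeks. This site was the strongest member in 3 of the 6 tables and among the 3 strongest in all of them.

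The bin at chr9:4260019-4260519, intergenic and nearest to Aasdhppt, which encodes the enzyme that attaches phosphopantetheine to carrier proteins, had a level of 5.57 in control females and 5.53 in females at 8 weeks. In the table of females at 3 weeks the same peak was represented by the neighbouring bin, with a level of 3.36, so the ages cannot be compared there. In males at 8 weeks the overlapping bin chr9:4260396-4260896 had 6.03, the highest level of any member in that table, while another bin stood for this peak in control males, with 2.99, and in males at 3 weeks, with 2.45. The bin is 64.3% GC and only 5.19% soft-masked.

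The bin at chr11:4121607-4121918 lies 1 to 2 kb from the start of Sec14l2, whose lipid-binding product carries tocopherol. Its level was 5.42 in control females and 5.44 in females at 8 weeks, and the overlapping male bin, chr11:4121520-4121918, had 5.08 in control males and 5.65 in males at 8 weeks. At 3 weeks the same peak was represented by another bin in each sex, with a level of 2.08 in females and 2.00 in males. None of the sequence of the female bin is soft-masked.

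The chromosome 7 window carried strong bins over a run of zinc finger genes, next to weaker ones of the same genes. In control females the bin at chr7:5031209-5031709, in an exon of Zfp865 and assigned to the neighbouring Zfp784, had a level of 4.56 within a peak of 4128 bp. In control males the peak of 4807 bp was represented by the bin at chr7:5031777-5032277, in the 3′ UTR of Zfp784, with 4.19, and that bin had 3.08 in males at 3 weeks and 5.13 in males at 8 weeks. Of the 4 members nearest to Zfp579 in each sex, the strongest had 3.63 in control females and 4.05 in control males, in peaks of 6271 and 5769 bp, and the others 2.38 to 2.90 and 1.88 to 2.45. In males at 3 weeks the peak of 5769 bp was represented by another bin, with 1.81. Over Fiz1, another zinc finger gene, the members had 3.58 and 2.79 in control females and 3.86 in control males.

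Other members led their autosome with levels near 4. The bin at chr13:4800301-4800801, assigned to the aldo-keto reductase gene Akr1e1 and lying in an intron of Gm5444, had 4.07 in control females, 3.65 in females at 3 weeks and 4.52 in females at 8 weeks. The bin near Sf3b6, which encodes a splicing factor, had 4.14 in control females and lies entirely in soft-masked sequence at chr12:4801232-4801732. The bin near Atp6v1h, which encodes a subunit of the vacuolar proton pump, had 4.02 at chr1:5170638-5171138. The intronic bin of Fam110b at chr4:5762439-5762939 had 4.00 in control females and 4.15 in females at 8 weeks. In control males the bin near 4930562C15Rik at chr16:4820825-4821325 had 4.10, with 3.55 at 3 weeks and 4.98 at 8 weeks.

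Gene families in the windows were compared by the symbol of the nearest gene. Zinc finger genes took 34 members around 10 genes in control females, 1.26% against 1.75% of the other bins, with a median level of 2.89 against 2.70. Vomeronasal receptor genes, which encode pheromone receptors of the nose, took 34 members around 10 genes, 1.26% against 0.570%, with a median of 2.90 against 2.85. In control males zinc finger genes took 53 members (1.61% against 1.68%) and vomeronasal receptor genes 36 (1.09% against 0.491%). The levels of the families varied from table to table. In males at 3 weeks the zinc finger members had a median of 2.04 against 2.09, and at 8 weeks the vomeronasal members had 2.85 against 2.89 in females and 2.95 against 2.99 in males. The strongest vomeronasal bin was nearest to Vmn1r64, with 3.96 in control females and 3.70 in control males.

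The paired and leukocyte Ig-like receptor genes, which encode immune receptors and sit in the chromosome 7 window, took 14 members in control females and 15 in control males. Elsewhere on the autosomes they took 0.0072% of bins in control females. Lair1, which encodes a collagen receptor of leukocytes, had 6 of these members in females, with levels up to 3.10. Olfactory receptor genes took 0 members in both age tables, and they also took few bins elsewhere (0.0072% and 0.0083%).

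Most genes of the windows were the nearest gene of some member, 472 of the 636 protein-coding genes (74.2%) for control females and 490 (77.0%) for control males, and the lists below are read against that. Of the 28 listed genes of liver hormone signalling and metabolism that lie in the windows, 27 had at least 1 member for control females and 28 for control males, with 195 and 235 bins. Their median levels were 2.73 and 2.19, against 2.67 and 2.14 for all members. Hnf4g, a nuclear receptor gene related to the hepatocyte regulator Hnf4a, was the nearest gene of the most members, 47 in each age table. The strongest had 3.49 in females and 3.59 in males, and both were intergenic, at -107747 and -244483 bp from its start. The chromosome 3 window held 102 members in control females and only 4 protein-coding genes.

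Several of these genes are central to liver metabolism. Insr, the insulin receptor gene, had 11 members in control females, the strongest at 3.35. That bin, chr8:3194293-3194671, lies inside the gene, which spans 3122061 to 3279617, and is 94.5% soft-masked. By the authors' annotation it is 1 to 2 kb from a transcript start. Cpt1a, which encodes the enzyme that admits fatty acids to mitochondria, had 13 members, with levels from 2.28 to 3.00. Gstp1, a glutathione transferase gene, had 3, the strongest at 3.48 in intergenic repeat sequence. Pon1, whose product circulates on high-density lipoprotein, had 3, up to 3.05.

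Other listed genes encode secreted proteins or receptors. C6, a complement component gene, had 9 members in control females, up to 3.42, and Selenop, which encodes the selenium carrier of plasma, had 4, up to 3.46. Both of these strongest bins were intergenic, at -72300 and -83207 bp from the start of the gene. Osm, a cytokine gene, had a bin in its 3′ UTR at 3.64 in control females and 3.41 in control males. Esr1, the oestrogen receptor gene, had 8 members in females and 11 in males, and its strongest bin in both sexes was within 1 kb of a start, at 3.11 and 2.53. Ghr, the growth hormone receptor gene, had 2 members in females and 4 in males, up to 3.05 and 2.43. The strongest female bin was intergenic, at -67320 bp from the start, and the strongest male bin was within 1 kb of a start.

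Of 9 listed genes of the windows that encode chromatin and DNA methylation proteins or related regulators, 8 had members in each age table, with 103 bins in females and 133 in males. All protein-coding genes there had members in 74.2% and 77.0% of cases. Suv39h2, itself a writer of H3K9me3, was the nearest gene of none, which does not show that no bin lies inside it. Dnmt3a, the de novo DNA methyltransferase gene, had 28 members in females and 32 in males, with the strongest at 3.05 and 2.75. Arid1b, which encodes a subunit of a chromatin remodeller, had 31 and 44. The median levels of the list, 2.60 in females and 2.12 in males, lay just below those of all members.

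The listed imprinted genes of the chromosome 6 window had 23 members in females around all 7 and 27 in males around 6, with Sgce the one without. The share over all genes of the windows was again 74.2% and 77.0%. Imprinted genes can be expressed from 1 parental copy, which was not measured here. Peg10, a gene derived from a retrotransposon, had 2 members in each sex, up to 3.13 and 2.93. Tfpi2 had 1 bin, at its promoter, with 3.06 in females and 2.59 in males.

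The tables of 3 and 8 weeks of 1 sex with MO share no library, and where both held the same bin its levels could be set side by side. In females 1737 members were in both, and their level was higher at 8 weeks by a median of 0.22 (quartiles 0.05 and 0.43). The other autosomal bins showed the same median, 0.22 over 70235 bins. In males 1633 members were higher by a median of 0.65, and the other 67024 bins by 0.63. Since the tables were scaled separately, the shift common to all bins says nothing about the amount of the mark, and the members are read against it.

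Against that shift the members stood at the middle. In females 894 of the 1737 (51.5%) lay above the median of the other bins, and in males 860 of the 1633 (52.7%). Members of repeated words moved further, by 0.35 in females and 0.80 in males, than those of unique words, by 0.20 and 0.62, and the other bins showed much the same, with 0.37 and 0.78 against 0.19 and 0.61. Members of 60% GC or more moved by 0.35 and 0.83, and other bins of that GC content by 0.37 and 0.83. By annotation the males differed more. Their intergenic members moved by 0.70 against 0.63 for other intergenic bins, and their promoter members by 0.64 against 0.69. In females these were 0.26 against 0.24 and 0.236 against 0.238. By chromosome, the median of the members exceeded that of the rest of the chromosome in both sexes on 10 autosomes, lay below it in both on 4 (chromosomes 2, 16, 17 and 19) and differed in sign between the sexes on 5. The widest excess was on chromosome 4 in females, at 0.17 (0.12 in males), and on chromosomes 15 and 8 in males, at 0.13 (0.12 and 0.06 in females), leaving aside chromosome 14 with its 1 bin in each sex. On chromosome 17 the members were at -0.08 in females and -0.06 in males.

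The sexes moved alike in part. For 869 pairs of a female and a male member that overlapped, the 8-week minus 3-week difference had a Spearman correlation of 0.45, and for 33113 pairs of other bins 0.41. Females and males share no library, but the paired bins share their sequence and hence their GC content and repeats. In 66.9% of the member pairs both sexes lay on the same side of the median of the other bins, against 64.2% elsewhere. In 23 pairs (2.65%) both exceeded it by more than 0.5, against 1.75% of the other pairs, and in 34 (3.91%) both lay more than 0.25 below it, against 4.07%.

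The members that stood highest at 8 weeks in both sexes were picked for that difference, so their values are a description. The intergenic bin nearest to Bet1, which encodes a protein of vesicle transport, had 2.36 at 3 weeks and 3.52 at 8 weeks in females (chr6:4092134-4092634), and 1.94 and 3.81 in males (start 4092077). It is the repeat bin whose word is shown above. The bin in an exon of Gm45224, nearest to Zfp958 (chr8:4651862-4652362), is mostly unique sequence and had 3.01 and 4.09 in females and 2.49 and 4.57 in males. The bin of Gm20399 nearest to Vmn1r64 (start 5904794) had 3.32 and 4.28 in females and 3.15 and 4.56 in males.

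Among genes of the liver list, 3 were nearest to such a bin. The Selenop bin (start 3184896) had 2.84 and 3.65 in females and 2.44 and 3.78 in males, the C6 bin (start 4607833) 2.49 and 3.30 in females and 2.18 and 3.76 in males, and the Insr bin (start 3065570) 2.50 and 3.35 in females and 2.51 and 3.73 in males. All 3 are intergenic, and the C6 and Insr bins are mostly soft-masked.

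Other members stood low at 8 weeks. The bin nearest to Mrps24, a gene of the mitochondrial ribosome (start 5694214), had 2.86 at 3 weeks and 2.55 at 8 weeks in females and 2.65 and 2.36 in males. The promoter bin of Mrpl15, also of the mitochondrial ribosome (start 4788522), had 3.02 and 2.81 in females and 2.81 and 2.68 in males. The bin nearest to Akr1c6, a steroid-metabolising reductase gene of the liver list (start 4398513), had 2.76 and 2.55 in females and 2.84 and 2.86 in males. The bin nearest to Hnf4g, of the same list (start 3370316), had 2.56 and 2.37 in females and 2.54 and 2.72 in males. Both were thus lower in males only against the shift of all bins.

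**Figure D5:**
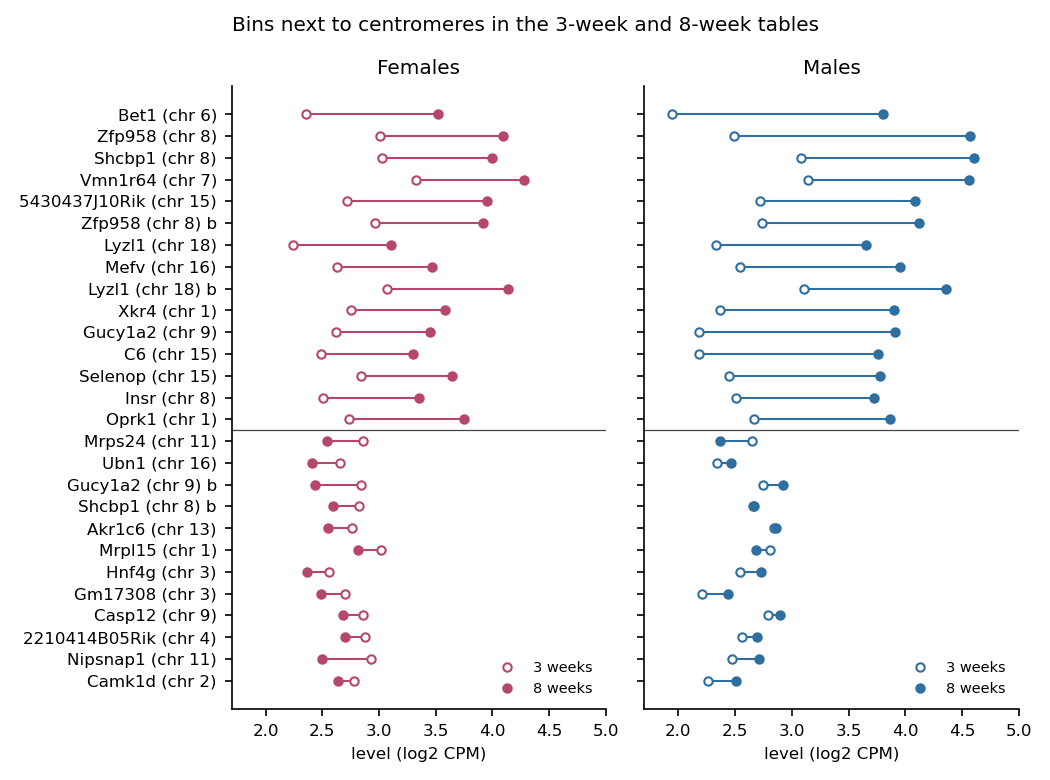
Level (log2 CPM, the authors' mean over MO and control libraries) of 27 members in the 3-week table (open circles) and the 8-week table (filled circles), females left and males right, named by the nearest gene and chromosome, with b for a second bin of the same gene. Bins above the horizontal line stood highest at 8 weeks in both sexes relative to other autosomal bins, and those below it stood lowest. The Bet1 bin goes from 2.36 to 3.52 in females and from 1.94 to 3.81 in males, and the axes do not start at 0.

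Female and male peaks were merged separately by the authors, so their bins rarely share both ends. Of the 2689 members of the control female table, 1428 (53.1%, 95% Wilson interval 51.2% to 55.0%) were overlapped by a male bin over at least 50% of the shorter bin, against 51.1% of the other female bins. Those 1428 pairs were 43.4% of the male members (41.7% to 45.1%), against 39.6% of the other male bins. By whole peaks, 82.2% of the female and 68.8% of the male members lay in a peak that overlapped one of the other sex, against 82.0% and 65.6% of the other autosomal peaks. Overlapped members had the higher levels, with medians of 2.80 against 2.57 in females and 2.34 against 2.01 in males, and the other autosomal bins showed nearly the same, 2.75 against 2.56 and 2.29 against 2.00. Over the 1428 pairs the female and male levels had a Spearman correlation of 0.65.

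Peaks recurred across the tables of 1 sex more than the bins that stood for them. In females 3372 peaks with a member were in at least 1 of the 3 tables and 2154 (63.9%) in all 3, and in males 3716 and 2233 (60.1%). Elsewhere on the autosomes the shares were 60.6% and 56.3%. The same bin was in all 3 tables for 1508 of 4188 female members (36.0%) and 1467 of 4806 male members (30.5%), against 33.5% and 27.5% elsewhere. Peaks of the 3-week table that were absent from the 8-week table numbered 743 in females (24.5%, against 27.8% of the other autosomal peaks of that table) and 1239 in males (35.5% against 39.5%). Peaks of the 8-week table absent from the 3-week table numbered 288 in females (11.2% against 11.9%) and 129 in males (5.41% against 5.06%). The peak set of 1 sex is common to its 3 tables by the authors' merging, and how peaks were left out of a table is not given in the sources used here.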

How the data were processed

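H3K9me3 ChIP-seq of mouse liver was read from 6 deposited tables, each over 8 libraries in 2 groups. Before deposit, the authors mapped reads onto mm10/GRCm38 with BWA, called broad peaks with MACS2, removed blacklisted regions, kept peaks of at least 3 replicates, merged them within each sex, counted reads in 500-bp bins with featureCounts and annotated them with ChIPseeker. The level is the authors' mean log2 CPM of a bin, as deposited. The authors' edgeR exact-test columns (log2 fold change, p-value and FDR, 3 per table) were left out by choice, and the tables hold no value per library, so no test was made. Depth per library is not in these tables, and its precision is unknown.

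Bins were selected by position, and GC, soft-masking and the places of 30-base words (10 sampled per bin, both strands, chromosomes 1 to 19, X and Y) were computed from the RefSeq GRCm38 sequence with Python 3.11.15, numpy 2.4.6, pandas 2.3.3, scipy 1.17.1 and numba 0.67.0, tested on simulated data. Transcripts were matched to gene names of GENCODE M21 (875 of 877 for control females). Named bins were the 3 strongest of each table, the strongest of each autosome in the age tables and the strongest of each listed gene, and the pairs that stood apart by age, the run of zinc finger genes on chromosome 7 and the examples of gene families were chosen after their values were seen. Of the listed symbols, Angptl4 and Kat6a lie outside the windows and Sepp1 is an older name of Selenop, so counts of genes leave them out. The members and lists were chosen with earlier results of these data known. Alternatives varied the window, the background, the bins kept and the overlap.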

Additional observations from a re-analysis of the deposited data

How the results depend on the processing

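Of 98 alternative values, 53 stayed within the interval of the reported value and 45 left it. In the order control females, control males, females and males at 3 weeks, females and males at 8 weeks, the density ratio was 0.911, 0.876, 0.878, 0.861, 0.920 and 0.925 with the window up to 9 Mb, and 0.925, 0.877, 0.890, 0.864, 0.923 and 0.924 without chromosome 19. Against the 6 to 9 Mb stretch alone it was 1.20, 1.16, 1.19, 1.17, 1.17 and 1.16, and the level difference turned negative, at -0.020, -0.0030, -0.0089, -0.010, -0.025 and -0.018, as did the age difference, at -0.023 in females and -0.0082 in males. With only peaks of 1 bin the density ratio was 1.08, 0.995, 1.04 and 0.969 in the first 4 tables and 1.08 in females at 8 weeks, and the level difference 0.0060 in control females, 0.0089 in control males, 0.016 and 0.015 in males at 3 and 8 weeks, and 0.030 in females at both ages. With only bins of 400 bp or more the level difference was 0.047 in control females, 0.063 in control males and 0.065 in females at 8 weeks, the median soft-masked share 13.4% and 14.4% in control females and males, and the median GC content of males 53.9%. When 1 shared base sufficed, 61.5% of female and 50.2% of male members were overlapped, and when both ends had to match, 0.112% and 0.0911%. The cause of these shifts was not tested. The window up to 5 Mb, and bins of unique words (chosen after seeing the data), moved none of the values recomputed under them. No paired analysis was possible because the tables hold no value per library, and for the same reason no replicate could be left out. Depth limits could not be assessed without counts.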
